A study of Mus musculus with 9 samples.

Results

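Cxcl1 and Cxcl5 are chemokines that draw neutrophils into inflamed tissue, and their transcripts were followed in mouse lung across overventilation, endotoxin and control. The members are the probes whose platform gene symbol is Cxcl1 or Cxcl5. Of 8841 genes named on the array these are 2, each with 1 of the 10012 probes (probe 3599 for Cxcl1 and probe 4390 for Cxcl5). RNA of lung tissue was measured on 9 arrays, 3 in each of 3 groups. The overventilation group was ventilated mechanically at a pressure of 25 cmH2O for 3 h. The LPS group received E. coli lipopolysaccharide, a component of the outer membrane of the bacterium, by injection at 3 mg/kg. The third group served as control. The labels are silent on strain, sex, age, the route of injection, the time after it and the handling of the controls. They also do not say whether each sample is its own animal, so the p-values measure a spread that may be technical.

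Both chemokines belong to the CXC family and carry the amino acids Glu-Leu-Arg (ELR) just before the first cysteines, the feature that lets a chemokine act on neutrophils through the receptor CXCR2. Cxcl1, long known as KC, is made by macrophages, endothelium, fibroblasts and epithelium within hours of a signal from Toll-like receptors, interleukin 1 or TNF, and its transcription depends on NF-kB. Cxcl5, known in the mouse as LIX, comes in the lung mainly from epithelial cells, alveolar type II cells among them, and also from platelets. Both genes lie on chromosome 5 of the mouse, in a cluster whose order in the reference annotation is Cxcl5, Ppbp, Pf4, Cxcl3, Cxcl15, Cxcl1 and Cxcl2.

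The sequence upstream of Cxcl1 is shown because NF-kB is the best known regulator of this gene. Its promoter in RefSeq (build GRCm38.p6, plus strand, chr5:90890995-90891294) runs from 250 bases before the gene's start to 50 bases after it. Capitals mark the match to GGAATTTCC, the core of the NF-kB site of this gene family, searched on both strands.
Cxcl1: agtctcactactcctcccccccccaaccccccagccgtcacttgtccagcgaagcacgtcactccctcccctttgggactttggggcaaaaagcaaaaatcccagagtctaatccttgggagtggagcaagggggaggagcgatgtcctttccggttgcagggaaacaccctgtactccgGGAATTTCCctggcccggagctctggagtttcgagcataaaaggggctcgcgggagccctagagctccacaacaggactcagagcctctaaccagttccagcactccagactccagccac
The window held 1 match, which starts 70 bases before the gene's start. Of 32851 promoters of the same length, 0.317% held a match. Among the 6 ELR chemokines of the mouse, 5 were found in this table (Cxcl1, Cxcl2, Cxcl3, Ppbp and Cxcl15), and Cxcl5 was not. The same 9 letters were present in 3 of these 5. They follow here with 10 bases on either side, to compare their surroundings, from the plus strand of GRCm38.p6 at chr5:90891165-90891193, chr5:90903793-90903821 and chr5:90786019-90786047.
Cxcl1: ctgtactccgGGAATTTCCctggcccgga
Cxcl2: ctgagctcagGGAATTTCCctggtccccg
Cxcl3: agctgcggggGGAATTTCCccagcccggg
The capitals mark the motif, which began 70, 96 and 72 bases before the start of the gene. The windows of Ppbp and Cxcl15 held 0 matches. The motif was chosen with the Cxcl1 sequence in view, a match describes letters only, and binding was not measured.

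The deposited values are ratios to the mean of the 3 controls of each probe, given here on the log2 scale with the control mean at 0, so that 1 stands for a doubling. They hold no level of one gene against another. Each array has a floor, its lowest possible value, whose place is known for a probe once 2 or more arrays lie at it. At neither chemokine did 2 arrays share the floor, so at most 1 array of each can have been at it. That array would be LPS array 1 for Cxcl1 and control array 3 for Cxcl5, and the true value of an array at the floor would be lower than the one given. For Cxcl1 the change of LPS minus control would then be too large and that of overventilation minus LPS too small, and for Cxcl5 both changes against control would be too small. Relative to the lowest array, the Cxcl1 values lay at least 2.05, 2.64 and 0.55 (log2) above the array's own floor on overventilation arrays 1 to 3, and at least 2.94 and 1.93 above it on LPS arrays 2 and 3. Those of Cxcl5 lay at least 3.48, 2.30 and 0.42 above the floor on overventilation arrays 1 to 3, and at least 2.13, 2.66 and 1.25 on LPS arrays 1 to 3. Among these arrays the margin of both chemokines was smallest on overventilation array 3, the array with the highest floor of the series (a ratio of 2.222).

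Of the 10012 probes, 5710 were tested, both chemokines among them. Probes at the floor made up 42.4% of overventilation array 3 and 27.8% to 39.4% of the other arrays, while the median log2 ratio of the tested probes stayed within -0.12 and 0.09 on the 9 arrays. Cxcl1 and Cxcl5 have 1 probe each, so no second probe could be set beside them. Where a gene did have a pair of tested probes (66 genes), the pair hardly moved together, with a median r of -0.03 across arrays against 0.01 for all pairs of tested probes. Among lung markers, the surfactant protein genes Sftpc, Sftpa1 and Sftpd and the club cell gene Scgb1a1 were above the floor on enough arrays to be tested.

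Cxcl1 was higher on every overventilated array than on every control array, and its geometric mean was 2.67 times that of the controls. It stood at 1.43, 1.72 and 1.11 on overventilation arrays 1 to 3, against -0.11, 0.11 and -0.01 on control arrays 1 to 3. The 3 overventilated values were close to each other and well clear of the controls, which spanned a narrow range. The means were 1.42 ± 0.31 after overventilation and 0 ± 0.11 in controls (SD, n = 3 each). The log2 change was 1.42 (SE 0.63, 95% confidence interval 0.01 to 2.82). In limma's fit over all 5710 probes the change did not pass, with an adjusted p of 0.329. This spread is shared by all 3 groups, and the LPS arrays add most of it for Cxcl1. Without LPS replicate 1 the interval was 0.63 to 2.21, and the limma adjusted p was 0.184. Without LPS replicate 2 it was 0.34 to 2.49 (limma adjusted p = 0.206), and without LPS replicate 3 -0.07 to 2.91 (limma adjusted p = 0.388). The interval also took in 0 when any 1 control or overventilated array was left out. After quantile normalization it was -0.26 to 2.56 (limma adjusted p = 0.832).

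Cxcl5 was also higher on every overventilated array than on every control array, with a geometric mean 3.01 times that of the controls. The arrays of the group differed among themselves. It stood at 2.70, 1.24 and 0.83 on overventilation arrays 1 to 3, against 0.01, 0.34 and -0.35 on control arrays 1 to 3. Overventilation array 1 stands far above the other 2, and array 3 is the closest to the controls. The means were 1.59 ± 0.99 after overventilation and 0 ± 0.34 in controls (SD, n = 3 each). The log2 change was 1.59 (SE 0.53, interval 0.40 to 2.78), and limma's adjusted p was 0.223. Without overventilation replicate 1 the log2 change was 1.03, and without overventilation replicate 3 it was 1.97.

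The background of this comparison was large. The test called 0% of the 5710 probes in either direction at an adjusted p under 0.05, and 850 probes had an unadjusted p under 0.05. All 3 overventilated arrays lay above all 3 controls at 9.19% of probes, so such a separation is frequent among the tested probes. The sizes of the changes were less frequent. A log2 change at least as high was found at 3.26% of probes for Cxcl1 and at 2.36% for Cxcl5.

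**Figure D1:**
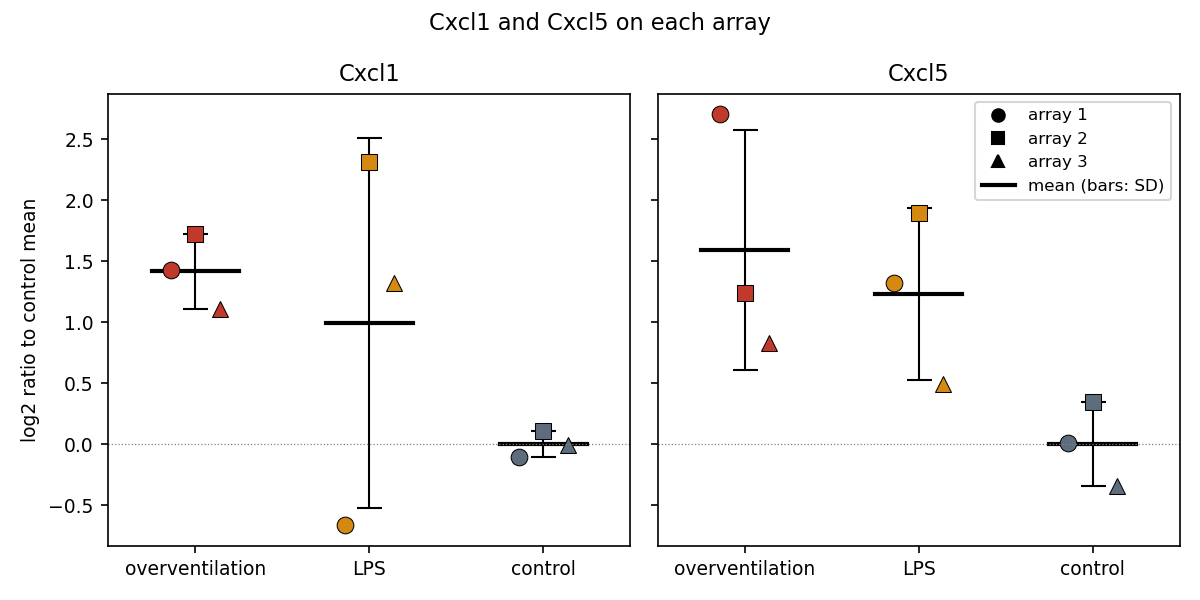
Log2 ratio to the control mean (vertical axis) of Cxcl1 (left) and Cxcl5 (right) on each array of overventilation, LPS and control, with symbols for arrays 1 to 3, thick lines for means and thin bars for SD (n = 3). For Cxcl1 LPS array 1, at -0.66, lies below all controls, and for Cxcl5 overventilation array 1, at 2.70, is the highest of the 9.

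After LPS the 2 chemokines parted on 1 array. Cxcl5 was higher on all 3 LPS arrays than on all controls, with a geometric mean 2.35 times that of the controls. It stood at 1.32, 1.89 and 0.49 on LPS arrays 1 to 3, against 0.01, 0.34 and -0.35 on control arrays 1 to 3. The lowest LPS value cleared the highest control value by a small margin only. The mean was 1.23 ± 0.70 after LPS and 0 ± 0.34 in controls (SD, n = 3 each), or a log2 change of 1.23 (SE 0.53, interval 0.05 to 2.42). Limma's adjusted p was 1, as it was for Cxcl1.

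Cxcl1 was high on LPS arrays 2 and 3 and low on LPS array 1. It stood at -0.66, 2.32 and 1.32 on LPS arrays 1 to 3, against -0.11, 0.11 and -0.01 on control arrays 1 to 3. The value on LPS array 1 is below all 3 controls and that on array 2 is the highest of the series. The groups thus overlap, and the mean depends strongly on which arrays are kept. The mean was 0.99 ± 1.52 after LPS and 0 ± 0.11 in controls (SD, n = 3 each), a 1.99-fold difference with a log2 interval of -0.41 to 2.39. Without LPS replicate 1 the log2 change was 1.82, without LPS replicate 2 it was 0.33, and without LPS replicate 3 it was 0.83.

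In this comparison too the test called 0% of probes in either direction, with 118 at an unadjusted p under 0.05. All 3 LPS arrays lay above all 3 controls at 2.24% of probes, Cxcl5 among them. A log2 change as high as that of Cxcl5 was found at 0.928% of probes, and one as high as that of Cxcl1 at 2.05%. The comparisons of overventilation and of LPS with control share the 3 control arrays.

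Set directly against each other, overventilation and LPS did not differ in either chemokine beyond the spread of the arrays. For Cxcl1 the log2 change of overventilation minus LPS was 0.43 with an interval of -0.98 to 1.83 (limma adjusted p = 0.843). For Cxcl5 it was 0.36 with an interval of -0.83 to 1.55 (limma adjusted p = 0.844). The arrays overlapped for both, with the overventilated array higher in 5 of the 9 possible pairs for each gene. These intervals leave room for differences of more than a doubling in the upward direction, so they do not show equal levels. The sign turned for Cxcl1 without LPS replicate 1 (-0.40), and for Cxcl5 without overventilation replicate 1 (-0.20) or LPS replicate 3 (-0.01). All 3 overventilated arrays lay above all 3 LPS arrays at 5.73% of probes, and 0% were called in either direction (543 at an unadjusted p under 0.05). In order of the means, both chemokines were highest after overventilation, next after LPS and lowest in controls. The upper neighbours in that order overlap for both genes, and the lower neighbours overlap for Cxcl1.

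**Figure D2:**
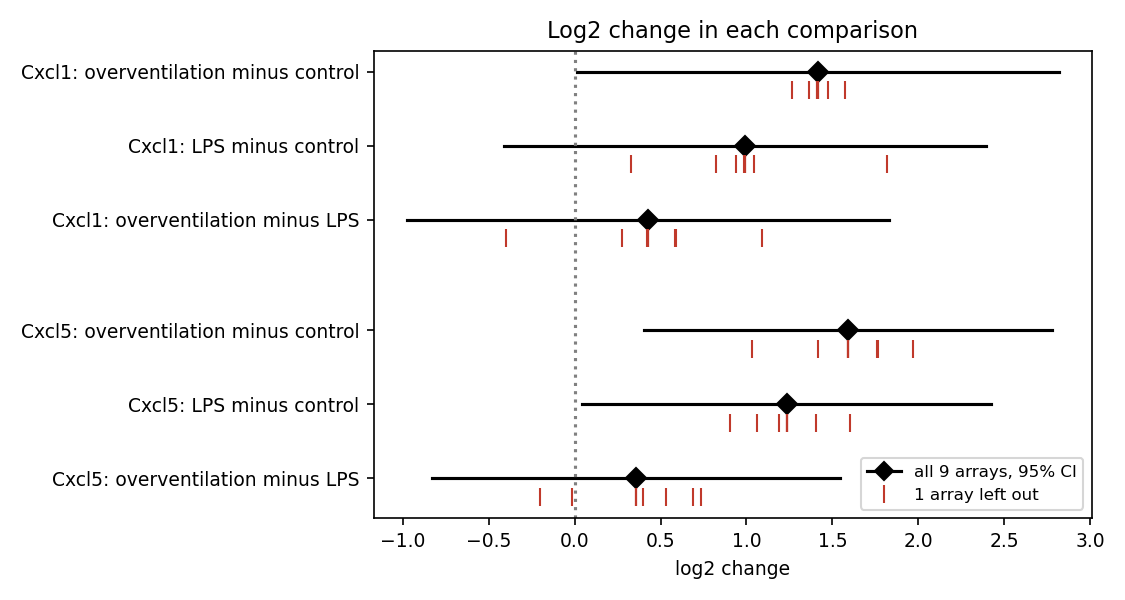
Log2 change (horizontal axis) of Cxcl1 and Cxcl5 in the 3 comparisons, with diamonds for the fit of all 9 arrays, black lines for its 95% confidence intervals and red ticks for the fits that leave out 1 array. The ticks of Cxcl1 for LPS against control run from 0.33 to 1.82, and those of Cxcl1 for overventilation against control from 1.27 to 1.57.

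The difference of both genes on one array, log2 Cxcl1 minus log2 Cxcl5, is unchanged by any single factor that scales the array. It can change under quantile normalization. It stood at -1.28, 0.48 and 0.28 on overventilation arrays 1 to 3 and at -1.98, 0.42 and 0.83 on LPS arrays 1 to 3, against -0.11, -0.23 and 0.34 on control arrays 1 to 3. Relative to their own controls, Cxcl5 exceeded Cxcl1 by far on the arrays numbered 1 of both exposed groups, and Cxcl1 was ahead on the other 4 exposed arrays. The means were -0.17 ± 0.96 after overventilation, -0.24 ± 1.52 after LPS and 0 ± 0.30 in controls (SD, n = 3 each). An exact permutation test over samples, two-sided, gave p = 0.9 for overventilation against control, p = 1 for LPS against control and p = 0.9 for overventilation against LPS. Adjusted over these 3 comparisons, each exact p was 1, and groups of 3 cannot go below p = 0.1. Without overventilation replicate 1 the difference between overventilation and control was 0.38 in place of -0.17, and without LPS replicate 1 that between LPS and control was 0.63 in place of -0.24. No difference between groups in the balance of the 2 genes was detected, and the spread within the exposed groups exceeded that within the controls.

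**Figure D3:**
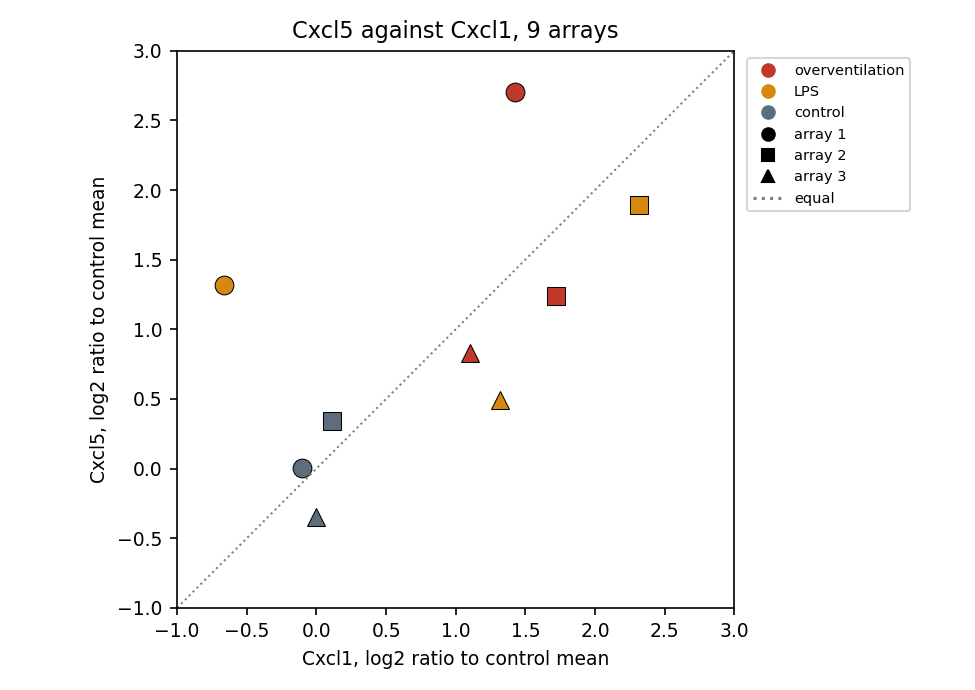
Cxcl5 (vertical axis) against Cxcl1 (horizontal axis), both as log2 ratio to the control mean, on the 9 arrays, with colours for overventilation, LPS and control, symbols for arrays 1 to 3 and a dotted line where both are equal. The circles of overventilation array 1 and LPS array 1 lie far above the line, with a difference Cxcl1 minus Cxcl5 of -1.28 and -1.98, and the other exposed arrays lie below it.

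The probes most like each chemokine over the 9 arrays were different ones. Likeness was the Pearson correlation of log2 ratios over the 9 arrays among 5154 other tested probes with a gene symbol, a description that array-wide shifts also raise. The 5 probes of each member were picked as the highest of these correlations on the same 9 arrays. Their high correlations, and the high and low arrays they share with the member, stem largely from that choice and were not tested. For Cxcl1 the highest was Selp (0.97), which encodes P-selectin, the adhesion molecule on which neutrophils begin to roll along activated endothelium. It was followed by the interferon-induced GTPase gene Ifi47 (0.95), the syntaxin gene Stx11 (0.95), 4930488L21Rik (0.95) and Csf2 (0.94), which encodes the growth factor GM-CSF. The correlations of deviations from the group means, which leave out the difference between groups, were between 0.92 and 0.97 for these 5. Each of the 5, chosen for likeness on these arrays, was lowest on LPS array 1 and highest on LPS array 2, as Cxcl1 was.

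Selp stood at 1.10, 1.04 and 0.81 on overventilation arrays 1 to 3 and at -0.60, 1.60 and 0.90 on LPS arrays 1 to 3, against 0.25, -0.14 and -0.12 on control arrays 1 to 3. As for Cxcl1, all overventilated arrays lie above the controls and the LPS arrays overlap them. Csf2 stood at 1.54, 1.77 and 1.00 on overventilation arrays 1 to 3 and at -1.26, 2.64 and 2.30 on LPS arrays 1 to 3, against -0.80, 0.46 and 0.34 on control arrays 1 to 3. Its LPS arrays span the widest range of these 5 genes. The log2 change of overventilation minus control was 0.98 for Selp and 1.44 for Csf2, with limma adjusted p of 0.4 and 0.493.

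For Cxcl5 the most alike was a probe of Nr6a1 (0.93), a nuclear receptor gene, whose other tested probe had a correlation of -0.19 with Cxcl5. It was followed by Slpi (0.92), which encodes a secreted inhibitor of neutrophil elastase made by airway and alveolar epithelium, the hexokinase gene Hk2 (0.90), the cullin gene Cul5 (0.90) and the interferon-induced chemokine gene Cxcl9 (0.89). Their correlations of deviations from the group means were between 0.76 and 0.92. Slpi stood at 1.67, 0.88 and 0.44 on overventilation arrays 1 to 3 and at 0.93, 0.99 and 0.48 on LPS arrays 1 to 3, against 0.46, -0.14 and -0.32 on control arrays 1 to 3. Overventilation array 1 is the highest for Slpi as for Cxcl5, and overventilation array 3 falls just under the highest control. The log2 change of overventilation minus control was 1.00 for Slpi (limma adjusted p = 0.274) and 1.65 for Hk2 (limma adjusted p = 0.193).

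Cxcl1 and Cxcl5 themselves had a correlation of 0.56 over the 9 arrays and of 0.17 in deviations from the group means. Cxcl5 was number 652 of the 5154 probes in likeness to Cxcl1, and Cxcl1 was number 266 in likeness to Cxcl5. All of the most alike genes had a promoter in the RefSeq table, and the motif GGAATTTCC was found in 0 of the 5 of Cxcl1 and in 0 of the 5 of Cxcl5.

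**Figure D4:**
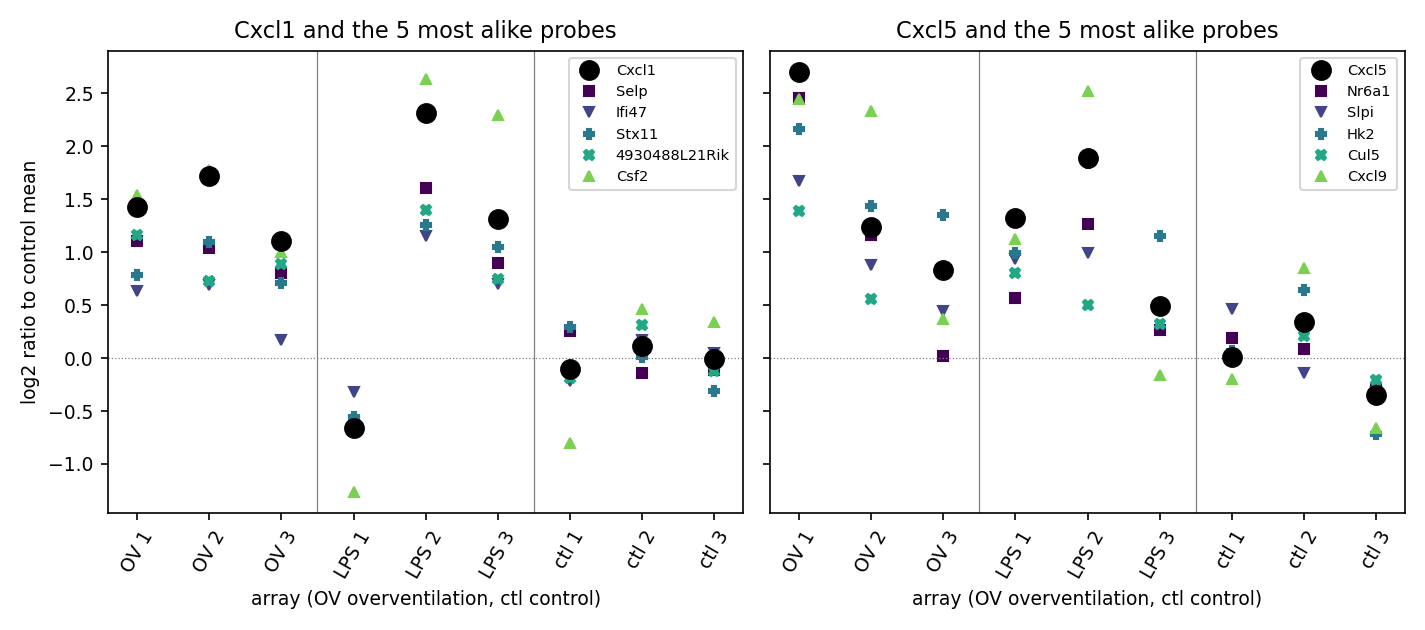
Log2 ratio to the control mean (vertical axis) on the 9 arrays (horizontal axis, overventilation, LPS and control from left to right) of Cxcl1 with its 5 most alike probes (left) and of Cxcl5 with its own 5 (right). On LPS array 1 Cxcl1 (-0.66) and its 5 genes all lie below 0, while Cxcl5 (1.32) and its 5 genes all lie above 0. The genes were picked for likeness on these same arrays.

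Of the 6 ELR chemokines, Cxcl1, Cxcl5, Ppbp and Cxcl15 were measured, and Cxcl2 and Cxcl3 were not analysed here. Of these 4, 0 passed the test in either direction in any comparison, and their median log2 change was 0.59 for overventilation minus control and 0.36 for LPS minus control, against -0.01 and -0.05 over all tested probes. Ppbp, the platelet chemokine also known as CXCL7, ran against Cxcl1 and Cxcl5. It stood at -0.80, -0.91 and -1.69 on overventilation arrays 1 to 3 and at -0.52, -2.23 and -1.57 on LPS arrays 1 to 3, against -0.46, -0.16 and 0.63 on control arrays 1 to 3. All exposed arrays lie below all controls, with log2 changes of -1.13 for overventilation (limma adjusted p = 0.318) and -1.44 for LPS (limma adjusted p = 1). All 3 overventilated arrays lay below all 3 controls at 10.5% of the tested probes, and all 3 LPS arrays did at 4.08%. Pf4, the neighbouring platelet chemokine gene and the only one of 5 platelet markers that was tested, stood higher after overventilation than in controls, with a log2 change of 1.41 (limma adjusted p = 0.228).

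Cxcl15, or lungkine, is a chemokine of airway and alveolar epithelium that mice make constitutively. It stood at 0.01, -0.66 and -0.07 on overventilation arrays 1 to 3 and at 0.15, -0.26 and -0.67 on LPS arrays 1 to 3, against 0.66, 0.09 and -0.75 on control arrays 1 to 3. The controls alone span more than the exposed groups, and the log2 changes were -0.24 for overventilation (limma adjusted p = 0.848) and -0.26 for LPS (limma adjusted p = 1). Among the receptors, Cxcr2, the signalling receptor of both chemokines on neutrophils, was at the floor on 8 of 9 arrays and was not tested. Ackr1, a decoy receptor of venules and red cells that carries chemokines without signalling, had log2 changes of -0.06 after overventilation (limma adjusted p = 0.967) and -0.43 after LPS (limma adjusted p = 1), with overlapping arrays. Cxcr1 was not analysed here.

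Upstream of the chemokines, 7 of 15 listed signals and receptors were tested, and 0 passed in either direction. The median log2 change was 0.39 for overventilation minus control and 0.35 for LPS minus control, and in neither comparison was any of the 7 free of overlap. Over all tested probes, 9.19% had all 3 overventilated arrays above all controls and 10.5% had them below. For LPS these shares were 2.24% and 4.08%. Il1b, which encodes the cytokine interleukin 1 beta, stood at -0.04, 0.85 and 0.83 on overventilation arrays 1 to 3 and at -0.84, 1.09 and 0.79 on LPS arrays 1 to 3, against 0.39, 0.13 and -0.52 on control arrays 1 to 3. Like Cxcl1, it was lowest on LPS array 1 and highest on LPS array 2. Its receptor gene Il1r1 had log2 changes of 0.39 after overventilation and 0.54 after LPS, and the TNF receptor gene Tnfrsf1a 0.77 and 0.0036 in the same order (limma adjusted p between 0.587 and 1 for these 3 genes). Cd14, a coreceptor for endotoxin, was lower on average after overventilation (-1.11) and higher on average after LPS (0.69), neither past the test (limma adjusted p = 0.446 and 1). Tlr4, the endotoxin receptor gene, was at the floor on 8 arrays, and Tnf on each of the 9.

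Of 11 genes of NF-kB itself, 5 were tested and 0 passed in either direction. The median log2 change was 0.38 for overventilation minus control and 0.30 for LPS minus control. Nfkb2, the gene of the p100 subunit, stood at 0.86, 1.33 and 2.58 on overventilation arrays 1 to 3 and at -0.02, 1.22 and 0.50 on LPS arrays 1 to 3, against 0.20, 0.07 and -0.27 on control arrays 1 to 3. It alone of the 5 had all overventilated arrays above all controls, a separation found at 9.19% of all tested probes. After LPS 1 of the 5 lay above all controls on all its arrays, Tnfaip3, named after its values were seen. Its log2 change was 0.30, and such a separation after LPS was found at 2.24% of all tested probes. Nfkbia, the gene of the NF-kB inhibitor that NF-kB induces, stood at -0.04, 0.29 and 0.89 on overventilation arrays 1 to 3 and at -2.10, 0.97 and 0.90 on LPS arrays 1 to 3, against 0.06, -0.18 and 0.12 on control arrays 1 to 3. LPS array 1 is again the lowest of the 9, as it was for Cxcl1. Relb and Ikbkb had log2 changes of 0.22 and 0.42 after overventilation (limma adjusted p = 0.917 and 0.687).

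Of 10 genes that set the stability of chemokine transcripts, 6 were tested and 0 passed in either direction, with a median log2 change of 0.48 for overventilation minus control and 0.17 for LPS minus control. Zfp36, whose protein speeds the decay of transcripts rich in AU, had log2 changes of 0.71 and 0.05 (limma adjusted p = 0.542 and 1) for overventilation and LPS in that order. Elavl1 and Mapk14, whose products stabilise such transcripts, had 0.53 and 0.43 after overventilation, with limma adjusted p of 0.592 and 0.651. Mapkapk2, a kinase gene of the same pathway, stood at the common floor of -0.43 on all 3 overventilated arrays. Control array 3 and LPS arrays 1 and 2 were at this floor too, and control array 1 stood at 0.71. The size of its change of -0.43 after overventilation (limma adjusted p = 0.621) is thus not settled.

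Of 11 adhesion genes of the step that follows, 5 were tested and 0 passed in either direction. The median log2 change was 0.84 for overventilation minus control and 0.42 for LPS minus control. Besides Selp, Vcam1 had all 3 overventilated arrays above all controls, with a log2 change of 2.42 (limma adjusted p = 0.193), and it had 0.92 after LPS (limma adjusted p = 1). Such a separation after overventilation was found at 9.19% of all tested probes. Sele, the E-selectin gene, stood at 2.29 on overventilation array 3 and at 0.22 or below on the other 2, so that array 3 carries its change of 0.84 (limma adjusted p = 0.537). The selectin ligand gene Selplg had -0.49 after overventilation and -0.21 after LPS (limma adjusted p = 0.512 and 1).

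**Figure D5:**
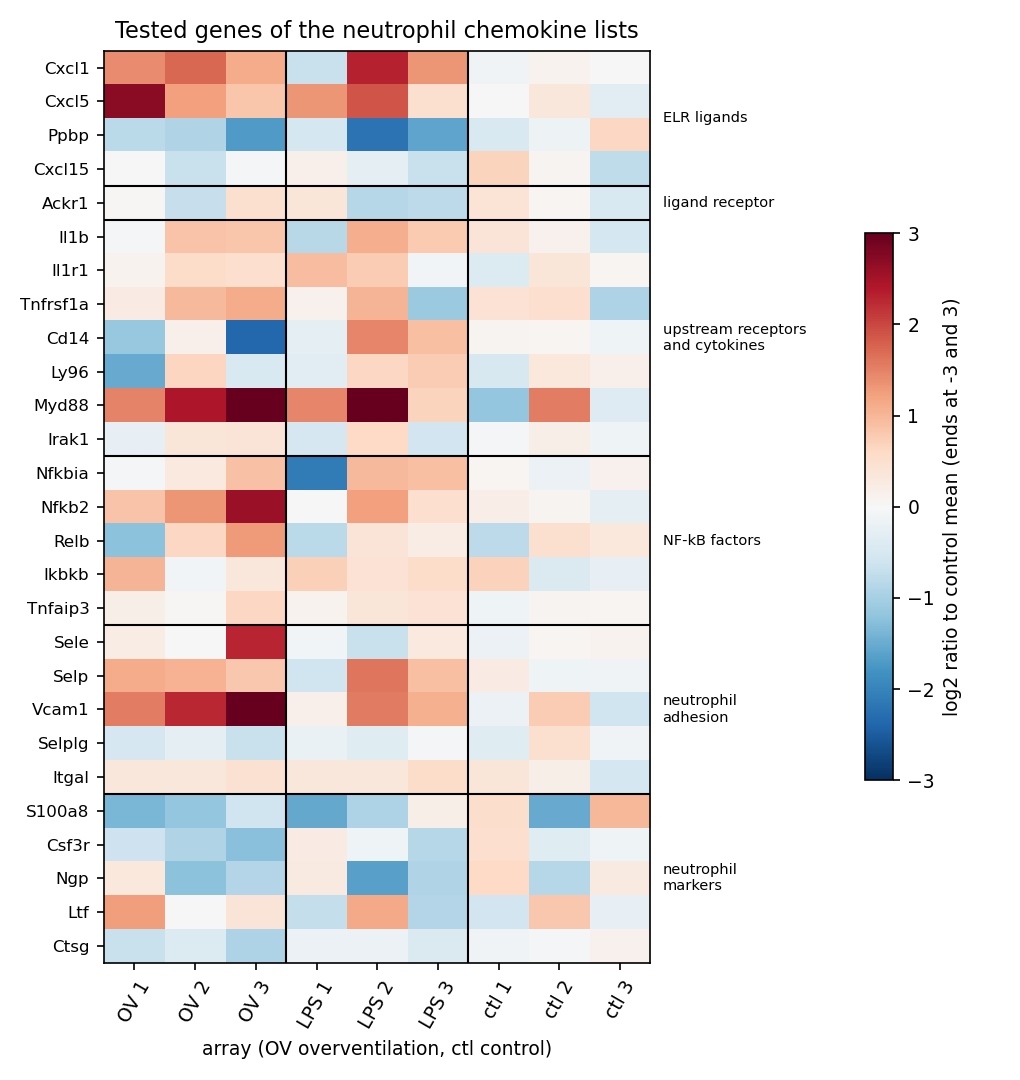
Log2 ratio to the control mean (colour, red above and blue below 0, with the scale ending at -3 and 3) of the tested genes of 6 lists (rows) on the 9 arrays (columns, overventilation, LPS and control from left to right). Cxcl1 and Cxcl5 in the top rows are red on most exposed arrays, Ppbp below them is blue, and Cxcl1, Il1b, Nfkbia and Selp are blue on LPS array 1.

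Markers of the cells that make or follow these chemokines were read from the same arrays. In tissue RNA, fewer cells of a type and less RNA per cell cannot be told apart. Of 18 neutrophil markers 5 were tested, 0 passed in either direction, and the median log2 change was -0.67 for overventilation minus control and -0.26 for LPS minus control. The median of these 5 genes was -0.61, -0.91 and -0.88 on overventilation arrays 1 to 3 and -0.17, -0.19 and -0.86 on LPS arrays 1 to 3, against 0.50, -0.37 and 0.14 on control arrays 1 to 3. All 3 overventilated medians thus lie below all 3 control medians, on the arrays where Cxcl1 and Cxcl5 were high. Of the 5 genes themselves, 2 separated in this way, Csf3r and Ctsg, the latter named after its values were seen. S100a8, Ngp and Ltf overlapped with the controls. Over all tested probes, 10.5% had all 3 overventilated arrays below all controls. After overventilation S100a8, a calcium-binding protein gene of neutrophils, had a log2 change of -1.04, the G-CSF receptor gene Csf3r -0.92, and the granule protein genes Ngp and Ltf -0.60 and 0.54 (limma adjusted p between 0.301 and 0.742). The granule enzyme genes Mpo and Elane were at the floor on 8 of 9 arrays each, and Mmp9 and Prtn3 on each of the 9.

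The alveolar type II markers, from the epithelial source of Cxcl5, had a median log2 change of -0.20 for overventilation minus control and -0.01 for LPS minus control over 6 tested genes of 10, with 0 passing in either direction. The median of these 6 genes was 0.33, -0.82 and -0.05 on overventilation arrays 1 to 3 and 0.56, -0.08 and -0.53 on LPS arrays 1 to 3, against 0.26, -0.04 and 0.07 on control arrays 1 to 3. By this median, array 1 is the highest in each of the 3 groups. Overventilation array 1 and LPS array 1 are also the arrays on which Cxcl5 exceeded Cxcl1 most. Among controls Cxcl1 minus Cxcl5 was lowest on array 2 (-0.23), not on array 1 (-0.11). The medians of the airway and alveolar type I markers, also epithelial, went the other way and were lowest on array 1 in each of the 3 groups. On array 1 of overventilation, LPS and control the airway median was -0.52, -0.33 and -0.42. The type I median there was 0.32, 0.05 and -0.10. Sftpc and Sftpd departed from the type II median, and the other members read here shared its placing of array 1 as the highest in each group. They were lowest among controls on array 1 (-0.58 and -0.39) and highest among overventilated arrays on array 3 (1.72 and 4.12), Sftpc first. The part of these markers in the Cxcl5 values was not tested. Sftpc, the surfactant protein C gene, had log2 changes of 0.74 and 0.22, Sftpa1 had -0.37 and -0.23, and Sftpd, at 4.12 on overventilation array 3, had 1.87 and 0.52, each for overventilation first and LPS second (limma adjusted p between 0.31 and 1). Abca3, a lipid transporter gene, had -0.03 and -0.10. The remaining tested members, named after their values were seen, were the phosphate transporter gene Slc34a2, with -0.44 and 0.07, and the protease gene Napsa, with -2.13 and -0.86 (limma adjusted p between 0.193 and 1). This Napsa probe had the largest change of the 6 after overventilation. It alone had all 3 overventilated arrays below all controls, a separation found at 10.5% of all tested probes. The other tested Napsa probe disagreed with it, with log2 changes of 0.48 and 0.05 (limma adjusted p = 0.694 and 1).

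Of the other markers 0 passed in either direction. Over 5 tested endothelial markers the median log2 change was 0.12 for overventilation and -0.18 for LPS, over 3 macrophage markers 0.06 and 0.15, over 3 airway markers 0.07 and -0.07, and over 2 fibroblast markers -1.05 and -0.22, each relative to control. The endothelial median was 0.59, 0.02 and -0.24 on overventilation arrays 1 to 3 and 0.39, -0.25 and -0.84 on LPS arrays 1 to 3, against 0.51, -0.09 and -0.42 on control arrays 1 to 3. It was highest on the array numbered 1 in each of the 3 groups. Over 5 alveolar type I markers the median was 0.37 for overventilation and 0.55 for LPS. Over 3 adipose markers it was -1.46 and -2.98, against controls of 0.75, 0.93 and -1.70 for arrays 1 to 3. On control array 3 Cxcl1 stood at -0.01 and Cxcl5 at its lowest value, -0.35, and without control replicate 3 the log2 changes of overventilation minus control were 1.41 and 1.42, for Cxcl1 and Cxcl5 in that order.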

How the data were processed

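The table analysed holds linear ratios for 10012 probes on 9 arrays. Tested on the values themselves, the deposited ratios had been divided, probe by probe, by the geometric mean of the 3 controls (largest deviation of the mean control log2 ratio 2.49e-09). No source used here states the array maker, dyes or scaling between arrays, and the number of arrays limits the precision.

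At 4690 probes 2 or more arrays showed one fixed pattern of lowest values (tolerance 1e-06, log2), taken as each array's floor. There, values were raised to the highest floor (1.152, log2). Probes above it on 3 or more arrays, or with an unknown floor, were tested (5710). No normalization was added. Symbols come from the platform annotation: 8983 probes have 1 symbol, 1 has several and 1028 have none. Of the gene IDs, 8975 matched RefSeq's table. A gene with several probes was read from the probe with most arrays above the floor, then from the lowest probe number.

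Groups, as the labels give them, were compared in R 4.3.3 using limma 3.58.1 (1 mean per group, all 9 arrays, eBayes), with Benjamini-Hochberg adjustment over the 5710 probes and a threshold of 0.05, and the difference of both genes with scipy 1.17.1. The limma step was tested on simulated data. The members and lists were chosen with earlier results of these data known. Named are both members, every ELR ligand and receptor, the 5 most alike probes of each member and the first 4 tested genes of each other list (for markers other than those of neutrophils, platelets and type II cells, medians only). Genes at the floor were named after their values were seen. The alternatives were no common floor, no filter, quantile normalization, median centring, division by each array's floor, array weights, the replicate number as a block, only the 2 groups compared, and leaving out each array. Same-numbered arrays' deviations from group means had correlations of 0.497, 0.247 and 0.199 for LPS and control. The correlations were 0.508, 0.133 and 0.033 for overventilation and control, and 0.496, 0.211 and 0.038 for overventilation and LPS. No label gives the numbers as pairs, and differently numbered arrays were not compared in this way, so whether arrays are paired is not known. The main fit treats them as unpaired, and the block is an alternative.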

Additional observations from a re-analysis of the deposited data

How the results depend on the processing

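Over the 17 alternatives run for each of the 6 comparisons of a chemokine, none passed the threshold, with limma adjusted p of 0.132 or higher. Several alternatives could not move the change itself. They were no common floor, no filter, the replicate block, only the 2 groups compared, and leaving out an array outside the comparison. With these counted in, 99 of 102 values kept their direction, so that count overstates how far direction was tried. The exceptions were overventilation minus LPS for Cxcl1 without LPS replicate 1 (-0.40), and for Cxcl5 without LPS replicate 3 (-0.01) or overventilation replicate 1 (-0.20). Leaving out 1 array gave ranges of -0.40 to 1.09 for Cxcl1 and -0.20 to 0.74 for Cxcl5 in that comparison. For overventilation minus control the ranges were 1.27 to 1.57 for Cxcl1 and 1.03 to 1.97 for Cxcl5, and for LPS minus control 0.33 to 1.82 and 0.90 to 1.61. The difference log2 Cxcl1 minus log2 Cxcl5 turned its sign in each comparison when 1 array was left out, with ranges of -0.50 to 0.38 for overventilation minus control, -0.78 to 0.63 for LPS minus control and -0.80 to 0.62 for overventilation minus LPS. In the last it was -0.26 without overventilation replicate 2, -0.16 without overventilation replicate 3 and -0.80 without LPS replicate 1. It was 0.38 for overventilation minus control without overventilation replicate 1 and 0.63 for LPS minus control without LPS replicate 1. These turns follow from the values of the single arrays given above.

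The other settings gave 1.15 to 1.47 for Cxcl1 and 1.32 to 1.69 for Cxcl5 (overventilation minus control), and 0.88 to 1.21 and 1.03 to 1.27 (LPS minus control). Dividing each array by its floor gave the changes of 1.15 and 1.32 for overventilation, with the median of all tested probes at -0.27. Relative to that median they were 1.42 and 1.59. With the replicate block the changes were as in the fit without it, with limma adjusted p of 0.21 for Cxcl1 and 0.132 for Cxcl5 (overventilation minus control) and 0.826 for both (LPS minus control), so no call changed. The exact test of the difference with same-numbered arrays taken as pairs gave p = 1 for LPS minus control. Numbers of probes called ranged from 0 to 290 for overventilation minus control (290 without overventilation replicate 2, 1 without control replicate 3), from 0 to 1 for LPS minus control (1 without control replicate 3) and from 0 to 226 for overventilation minus LPS (226 without overventilation replicate 2). The cause was not tested.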
